A study of Danio rerio with 12 samples.

Results

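The amino acid transporter genes of the zebrafish liver were read from 7 families of solute carriers, slc1a, slc3a, slc6a, slc7a, slc36a, slc38a and slc43a. Every gene whose name began with 1 of these family names followed by a number was taken, apart from the cystine exchanger gene slc7a11. The rule found 77 genes among the 34028 in the table, namely 12 of slc1a, 3 of slc3a, 25 of slc6a, 16 of slc7a, 2 of slc36a, 13 of slc38a and 6 of slc43a. Of these, 51 had enough reads to be tested and 26 did not. The rule works on names, so it also takes carriers of other substrates, such as slc6a4a for serotonin, and slc7a6os, which lies beside slc7a6 on the opposite strand and is not a transporter gene.

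Liver RNA came from krasV12 transgenic zebrafish, 3 months old, in 4 groups of 3 libraries. One group received the solvent DMSO, the next the organophosphate flame retardant TDCIPP, which is tris(1,3-dichloro-2-propyl)phosphate, the next DOX, which the labels do not spell out, and the last TDCIPP with DOX (TDCIPP+DOX). All groups carried the kras transgene, including the DMSO controls, and the labels name neither the promoter that drives it nor the sex of the fish. Whether each library is a different fish is not said in the sources used here. The p-values therefore rest on the spread among libraries, and that spread may be technical.

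Amino acids cross cell membranes through these carriers. The sodium-coupled carriers of slc38, slc1 and slc6 concentrate amino acids in the cell, slc7 carriers exchange or admit cationic and large neutral ones, some of them bound to an slc3 heavy chain, and slc43 carriers let large neutral amino acids equilibrate. In mammals, the hepatocyte takes up alanine and glutamine through slc38 carriers and arginine through slc7a2. Supply through such carriers is sensed by mTORC1 at the lysosome and, when it falls short, by the kinases upstream of ATF4.

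Depth ran from 28621536 to 40877342 gene-assigned reads per library, with 19160 genes tested. Levels below are CPM, counts scaled with TMM to a common library size. The TMM factors lay between 0.64 and 0.77 in DMSO and between 1.39 and 1.46 in TDCIPP+DOX. Statements that libraries lay above or below others refer to this scale, and some do not hold in the authors' deposited FPKM. Differences are log2 fold changes from edgeR with their SE, called at an adjusted p under 0.05 over all genes tested. Hepatocyte markers were present in every library, with a summed level between 63201 and 128079 CPM for the 15 genes of the list. The lowest sum was that of DOX replicate 3, beside 113121.4 and 112945.5 CPM in DOX replicates 1 and 2. Transcripts of other organs and cell types were unequal between libraries. For the intestinal gene fabp2, 3 libraries were high, DMSO replicate 3 with 55.7 CPM, TDCIPP replicate 1 with 46.8 and TDCIPP+DOX replicate 3 with 106, against 0.2 to 8.73 in the others. The oocyte gene buc reached 205 CPM in DOX replicate 3, against 22.6 or less elsewhere, though the oocyte list as a whole summed to 2984 CPM there and to 3007 in DMSO replicate 2. Exocrine pancreas markers summed to between 89.4 CPM in DOX replicate 3 and 3149 in DMSO replicate 3, with 1830 in TDCIPP+DOX replicate 1. Endocrine pancreas markers summed to 2.8 to 16.1 CPM in DMSO and 0.3 to 1.9 in DOX, and erythrocyte markers to 331 to 725 in DMSO and 71.5 to 227 in DOX. The part of these cell types in the members' differences was not tested. In DOX replicate 3 the correlation of log2 CPM across genes with the other DOX libraries was 0.791 and 0.8, against 0.925 between those. Calls of members are given with and without the 4 libraries with high fabp2 or buc, called the libraries of unequal organ transcripts. Results of the other gene lists are given with these libraries only. In RNA of whole liver, fewer cells of a type and less RNA per cell cannot be told apart.

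In control liver the transporter RNA was dominated by a few genes. Per kilobase of transcript, slc38a4, a sodium-coupled carrier of neutral amino acids that is enriched in mammalian liver, stood at 243 ± 113 CPM (SD, n = 3), which was 48.5% of the sum over all 77 genes. The glutamate carrier gene slc1a3a followed at 65.4 ± 10.2 CPM per kilobase and the cationic carrier gene slc7a2 at 57.6 ± 4.55, and these neighbours did not differ beyond their spread. The large neutral carrier genes slc43a1b and slc43a1a stood at 19.7 ± 2.48 and 10.9 ± 2.03 CPM per kilobase, with slc38a2 between them at 13.0 ± 9.58. The 10 highest members were the same 10 by the authors' deposited FPKM, by which slc38a4 made up 65.2% of the sum over all members. On that scale 6 members reached a mean of 10 in DMSO, 27 reached 1 and 32 stayed under 0.1.

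**Figure D1:**
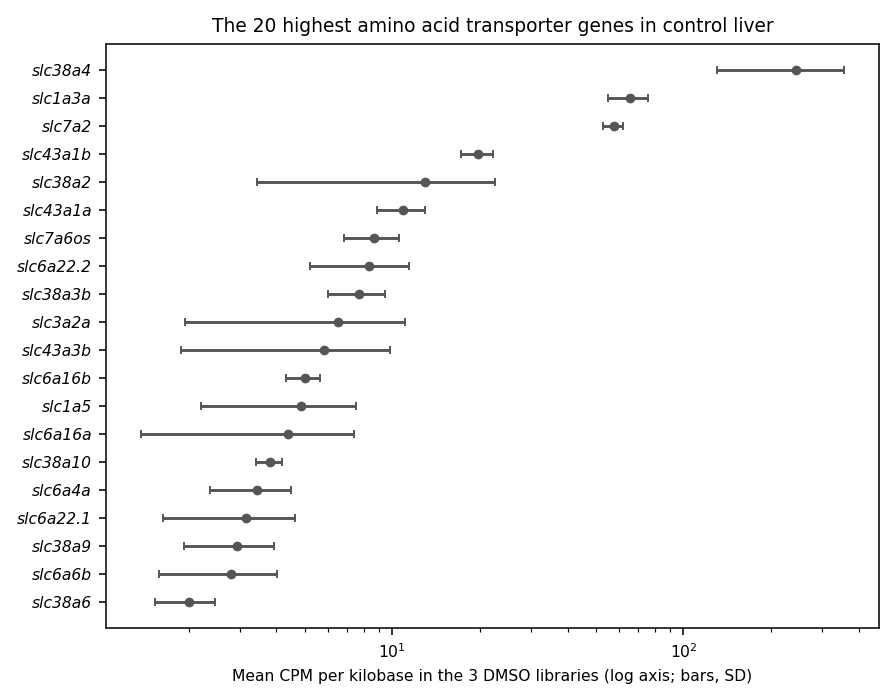
Mean CPM per kilobase of transcript in the 3 DMSO libraries for the 20 highest amino acid transporter genes, on a log axis, with bars for the SD. The gene slc38a4 stands at 243, and the next, slc1a3a and slc7a2, at 65.4 and 57.6.

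The genes not tested include 9 of the 12 slc1a genes and 12 of the 25 slc6a genes. Among them are the glutamate carrier genes slc1a2a and slc1a2b, with 4 and 11 reads over all 12 libraries, the GABA carrier genes slc6a1a and slc6a1b, with 19 and 16, and the intestinal and renal carrier gene slc6a18, with 2. The GABA carrier gene slc6a11b had 0 reads in all libraries, which allows a level of up to 0.00736 CPM over the 407695746 reads of all libraries. The dopamine carrier gene slc6a3 was read in DOX replicate 3 at 1.66 CPM and at no more than 0.02 elsewhere. Transcripts of slc7a5, the light chain best known for leucine uptake in mammalian tumours, were tested but stayed at 0.45 CPM or less in every library.

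In the scaling by TMM, most members called in TDCIPP+DOX against DMSO were lower, while 29 of the 51 tested lay above 0 and 22 below by log2 fold change. Against DMSO, 10 of 51 tested members were called in TDCIPP+DOX, 1 higher and 9 lower, where 11.7% of all genes tested were called, 5.33% higher and 6.37% lower. The members that fell were slc1a3a, slc7a2, slc43a1a, slc38a4, slc7a9, slc6a22.2, slc6a16b, slc6a16a and slc6a4a, and the member that rose was slc7a10a, a carrier of small neutral amino acids. The 3 most abundant transporter genes of control liver were among those that fell. The median log2 fold change over the tested members was 0.11, beside 0.10 over all genes tested. Groups did not overlap for 18 of the 51, where 39.1% of all genes tested had no overlap. With library totals as the scale and not TMM, the median of all genes in this comparison went from 0.10 to 1.11. The test then called 15 members higher and none lower (36.4% and 1.59% of all genes tested), with slc7a10a the only member of the 10 still called, and a members' median of 1.14. The 9 calls lower thus hold on the TMM scale and not under library totals. The 9 log2 fold changes kept their negative sign there, such as -1.22 for slc7a9 and -0.03 for slc6a16b. Without the 4 libraries of unequal organ transcripts, 5 members were called higher and 5 lower (6.27% and 5.76% of all genes then tested). Those lower were slc1a3a, slc43a1a, slc6a16a, slc7a2 and slc7a9, all among the 10, and those higher were slc38a7, slc43a2b, slc6a6b, slc7a7 and slc7a8a, none of them among the 10.

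**Figure D2:**
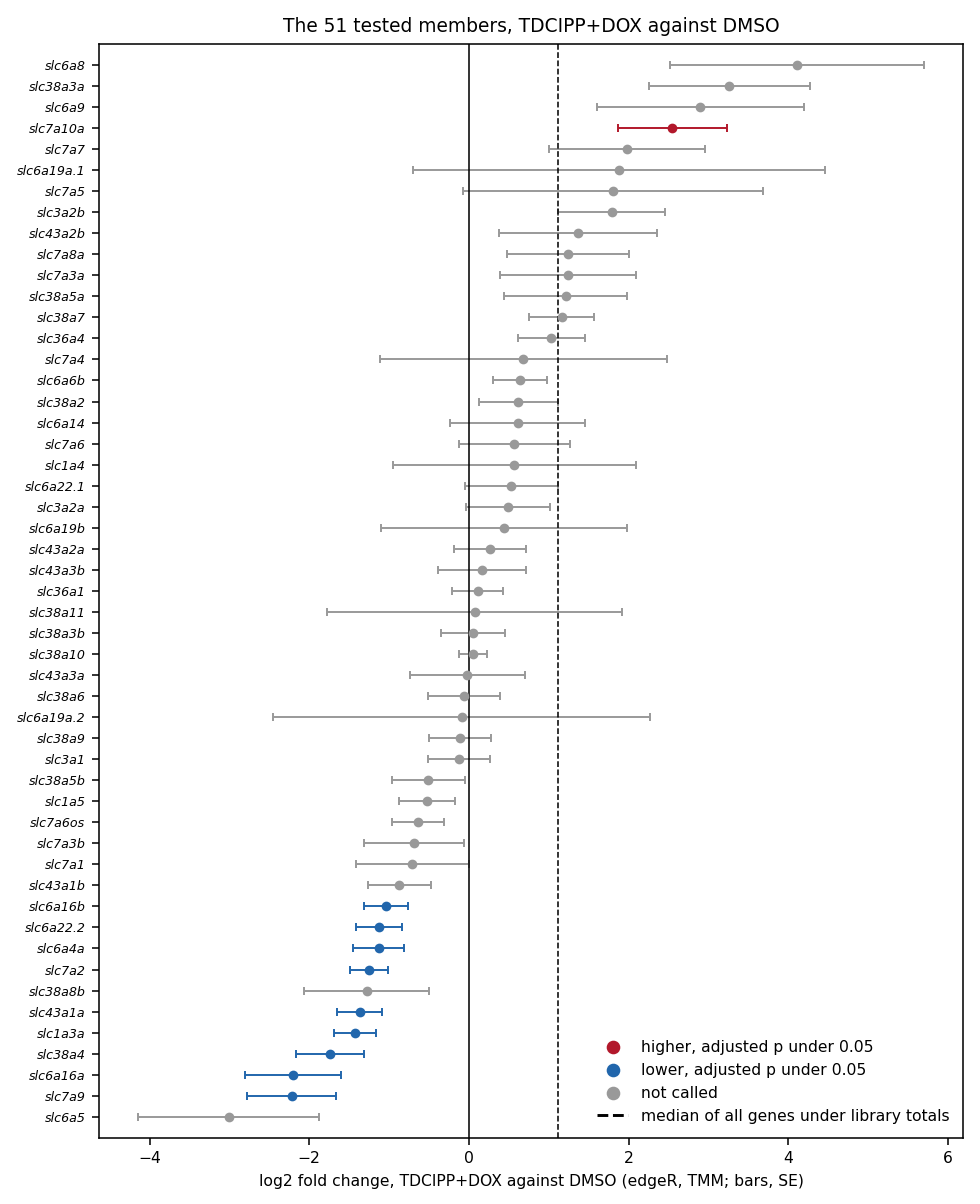
Log2 fold change of each of the 51 tested members in TDCIPP+DOX against DMSO (edgeR, TMM), with bars for the SE. The dashed line at 1.11 is the median of all genes under library totals, and slc7a10a is the only member called higher, at 2.55.

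With DOX alone, 5 of 51 tested members were called against DMSO, 1 higher and 4 lower, where 6.86% of all genes tested were called, 3.93% higher and 2.93% lower. The lysosomal glutamine exporter gene slc38a7 was higher, and slc6a22.2, slc6a4a, slc1a3a and slc43a3b were lower. The members' median log2 fold change was -0.30, beside 0.12 over all genes tested. Under library totals, which moved the median of all genes from 0.12 to 0.83, 5 members were called higher and 1 lower (25.1% and 1.21% of all genes tested). With the 4 libraries of unequal organ transcripts left out, none of the 5 was called, where 3.57% of all genes tested were. In that fit the adjusted p of edgeR lay between 0.0544 for slc6a22.2 and 0.127 for slc6a4a, and the smaller log2 fold changes kept their signs.

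TDCIPP alone gave no call. Between TDCIPP and DMSO, 0 of 51 members passed edgeR's threshold, where 0.0418% of all genes tested did. Before adjustment, p was under 0.05 for 3 members, 2 higher and 1 lower, and for 10% of all genes tested. DESeq2, given all 34028 genes without the filter on low counts, called 2 members, slc38a4 and slc6a9, and 1.25% of the 34028 genes. That base includes genes without reads, such as the member slc6a11b, which cannot be called. Shares by DESeq2 are therefore low beside those by edgeR, which are of the genes tested. Added to DOX, TDCIPP gave 1 call, slc43a1a, which was lower in TDCIPP+DOX than in DOX, where 2.1% of all genes tested were called, 1.39% lower. Before adjustment, p was under 0.05 for 20 members, 13 higher and 7 lower, and for 24.4% of all genes tested. DESeq2 called 9 of the 77 members and 6.22% of the 34028 genes.

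DOX added to TDCIPP gave 4 calls, all lower, where 4.18% of all genes tested were called, 2.16% lower. They were slc43a1a, slc6a22.2, slc6a16b and slc1a3a. Under library totals, which moved the median of all genes from -0.01 to 0.64, the split was 4 higher and 1 lower (13.2% and 0.992% of all genes tested), with slc43a1a the member still lower. The comparisons share groups of libraries, so their calls are not independent of each other, and 12 different members account for the 20 calls.

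**Figure D3:**
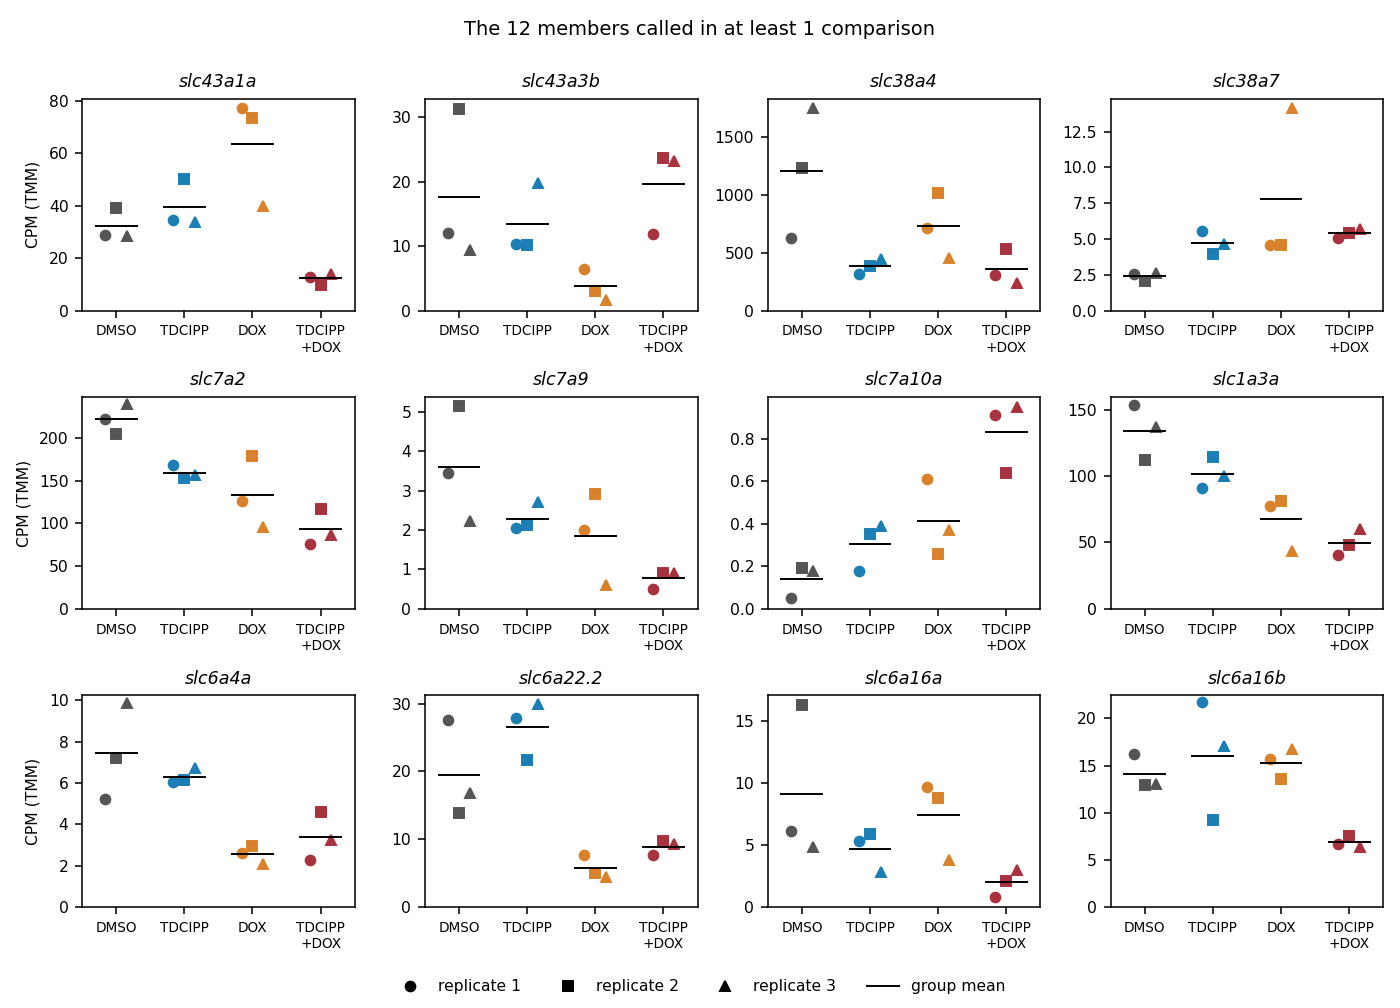
CPM (TMM) of the 12 members called in at least 1 comparison, with 1 point per library, marked by replicate, and a line at each group mean. The 3 TDCIPP+DOX libraries lie below all other libraries for slc43a1a and slc6a16b, and above all others for slc7a10a.

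Among the 6 slc43 genes, all tested, slc43a1a was called in 3 comparisons and slc43a3b in 1, each time lower, with all 12 libraries. For slc43a1a these were TDCIPP+DOX against DMSO, DOX and TDCIPP, where 6.37%, 1.39% and 2.16% of all genes tested were lower. For slc43a3b it was DOX against DMSO, where 2.93% were lower. The slc43a1a protein of mammals, LAT3, carries branched-chain amino acids and phenylalanine by facilitated diffusion. The gene lies on chromosome 14 from 22076596 to 22098011 on the plus strand, in the coordinates of the deposited table, whose build is not given in the sources used here. It stood at 29.04, 39.1 and 28.4 CPM in DMSO, 34.7, 50.4 and 33.8 in TDCIPP, 77.4, 73.5 and 39.9 in DOX, and 13.0, 10.02 and 14.2 in TDCIPP+DOX. Each DOX library lay above each DMSO library, and on the TMM scale each TDCIPP+DOX library lay below every other library. In the authors' deposited FPKM, TDCIPP+DOX replicate 3 stood at 14.2 and DMSO replicate 3 at 12.9. Between TDCIPP+DOX and DOX the fall was 5.12-fold (log2 fold change -2.36 ± 0.29, edgeR adjusted p = 0.0176, lower in 3 of 3 libraries). The rise with DOX alone, 0.98 ± 0.28, missed the threshold (edgeR adjusted p = 0.0599).

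Against TDCIPP the fall of slc43a1a was 3.19-fold (-1.67 ± 0.29, edgeR adjusted p = 0.0126) and against DMSO 2.59-fold (-1.37 ± 0.28, adjusted p = 0.0113). The interaction, the effect of DOX with TDCIPP less its effect without, was -2.66 ± 0.40 on the log2 scale and missed the threshold after adjustment (edgeR adjusted p = 0.0774). In the interaction 0 of 51 members were called, where 0.0261% of all genes tested were. Before adjustment, 3 members were higher and 3 lower at p under 0.05, where 12.8% of all genes tested had such a p. DESeq2 called 2 of the 77 members, slc43a1a and slc43a3b, and 0.823% of the 34028 genes. The call against DMSO held in all 12 fits that left out 1 library, and was lost under library totals (-0.35, adjusted p = 0.228). The call against DOX was lost without DOX replicate 2 or any TDCIPP+DOX library (edgeR adjusted p from 0.0601 to 0.0961). Without DOX replicate 2, 2 of all genes tested were called against DOX, and without any 1 TDCIPP+DOX library 0, beside 403 with all 12 libraries. The log2 fold change of slc43a1a against DOX lay between -2.59 and -2.15 in the 12 fits. The call against TDCIPP was lost without TDCIPP replicate 2 or any TDCIPP+DOX library (from 0.0511 to 0.0609). In those fits 127 to 273 of all genes tested were called, beside 801. Under library totals the calls against DOX and TDCIPP held, at -1.96 (adjusted p = 0.0221) and -1 (0.0174). Without the 4 libraries of unequal organ transcripts all 3 calls held, at -1.52 against DMSO (edgeR adjusted p = 0.0141), -2.69 against DOX (0.034) and -1.85 against TDCIPP (0.018).

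Its paralogue slc43a1b was not called in any comparison by edgeR, with adjusted p from 0.177 to 0.936. It stood at 65.4, 84.2 and 75.9 CPM in DMSO, 23.0, 77.2 and 35.0 in TDCIPP, 67.1, 74.5 and 46.5 in DOX, and 29.6, 42.7 and 50.97 in TDCIPP+DOX. The difference between TDCIPP+DOX and DMSO was -0.87 ± 0.39 (edgeR adjusted p = 0.177) and turned to 0.15 under library totals. The difference between the paralogues was not tested.

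The gene slc43a3b, whose mammalian protein carries nucleobases and not amino acids, moved the other way. It stood at 12.02, 31.3 and 9.45 CPM in DMSO, 10.3, 10.2 and 19.8 in TDCIPP, 6.52, 3.14 and 1.73 in DOX, and 11.9, 23.7 and 23.2 in TDCIPP+DOX. Every DOX library lay below every library of the other groups. The fall with DOX was 4.63-fold (-2.21 ± 0.58, edgeR adjusted p = 0.0451), and TDCIPP+DOX lay 5.16-fold above DOX (2.37 ± 0.58) without passing (adjusted p = 0.0572). The fall held in 1 of 12 fits that left out a library, that without DOX replicate 1, and the adjusted p in the other 11 ran from 0.0548 to 0.145. With the 4 libraries of unequal organ transcripts left out it was -2.14 (adjusted p = 0.0902). The LAT4 gene slc43a2b reached 18.4 CPM in DMSO replicate 3 and 38.5 in TDCIPP+DOX replicate 3, against 1.5 to 14.0 elsewhere. Without the 4 libraries of unequal organ transcripts it was called higher in TDCIPP+DOX than in DMSO. The values left were 10.9 and 6.33 CPM against 1.5 and 1.65.

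**Figure D4:**
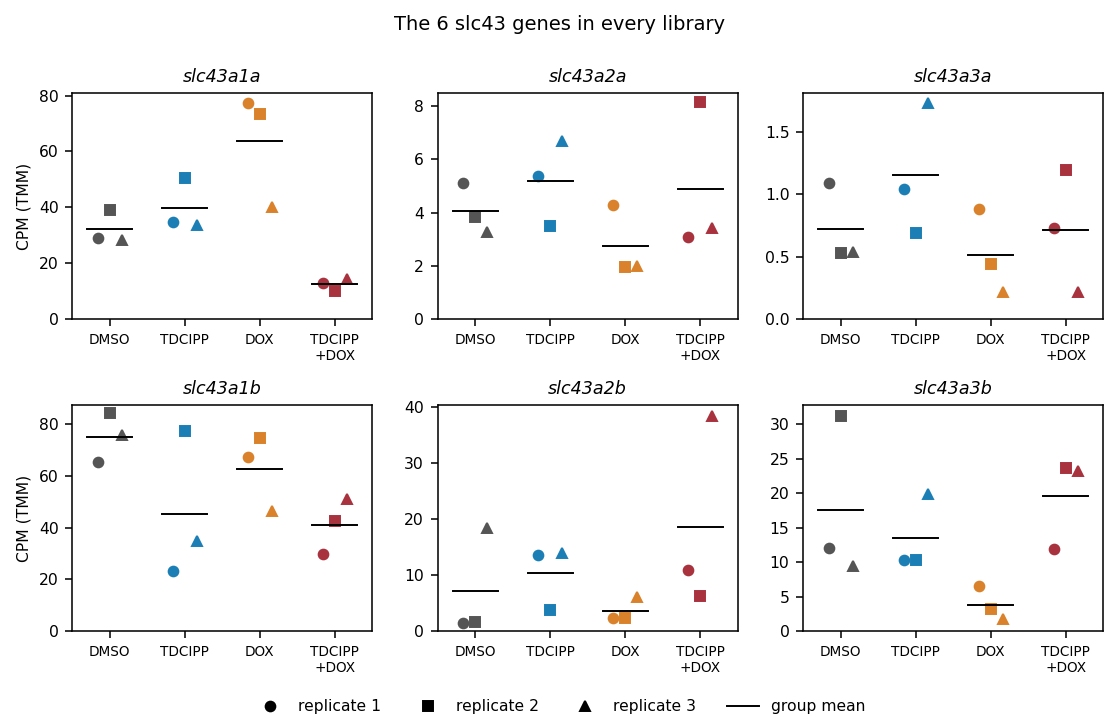
CPM (TMM) of the 6 slc43 genes, with 1 point per library, marked by replicate, and a line at each group mean. For slc43a1a the group means are 32.2 in DMSO, 63.6 in DOX and 12.4 in TDCIPP+DOX, whereas for slc43a3b the lowest group mean is that of DOX, 3.8.

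Of the 12 tested slc38 genes, the sodium-coupled neutral carriers, 1 was called lower in TDCIPP+DOX against DMSO (6.37% of all genes tested). In DOX against DMSO, 1 of these 12 slc38 genes was called higher (3.93% of all genes tested). The most abundant, slc38a4 (chromosome 4, 1516716 to 1566572, plus strand), stood at 631, 1231 and 1753 CPM in DMSO, 316, 385 and 447 in TDCIPP, 713, 1015 and 456 in DOX, and 308, 531 and 242 in TDCIPP+DOX. On the TMM scale every library that received TDCIPP lay below every DMSO library, and the DMSO libraries themselves spanned a wide range. In the authors' deposited FPKM the groups overlapped, with TDCIPP+DOX replicate 2 at 381 and DMSO replicate 1 at 250. The fall in TDCIPP+DOX against DMSO was 3.34-fold (-1.74 ± 0.43, edgeR adjusted p = 0.0232). In TDCIPP alone it was 3.15-fold (-1.66 ± 0.42) and was not called by edgeR (adjusted p = 0.229), but was by DESeq2 (adjusted p = 0.0136). The share of slc38a4 in the members' summed CPM per kilobase was 25.6% in TDCIPP, 29.1% in TDCIPP+DOX and 43.9% in DOX.

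The call of slc38a4 was lost without DMSO replicate 2 or 3 or TDCIPP+DOX replicate 1 or 3 (edgeR adjusted p from 0.0708 to 0.0981). It was also lost without the 4 libraries of unequal organ transcripts (-1.11, adjusted p = 0.102) and under library totals (-0.68, adjusted p = 0.134). Next to it on chromosome 4, from 1600034 to 1617897, lies slc38a2, whose mammalian RNA rises when amino acids are short. It stood at 27.6, 46.5 and 117 CPM in DMSO, 80.2, 37.8 and 55.3 in TDCIPP, 84.1, 62.3 and 50.4 in DOX, and 138, 59.8 and 95.9 in TDCIPP+DOX. The groups of slc38a2 overlapped in every comparison with DMSO.

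The lysosomal exporter gene slc38a7 stood at 2.54, 2.09 and 2.64 CPM in DMSO, 5.55, 3.95 and 4.66 in TDCIPP, 4.62, 4.56 and 14.2 in DOX, and 5.11, 5.46 and 5.71 in TDCIPP+DOX. All 9 libraries of the treated groups lay above the 3 DMSO libraries, and DOX replicate 3, the library with the oocyte gene buc at 205 CPM, lay highest. The rise with DOX was 3.21-fold (1.68 ± 0.41, edgeR adjusted p = 0.0365), and without DOX replicate 3 the log2 fold change was 0.93 and still called. Without all 4 libraries of unequal organ transcripts it was 1.01 (adjusted p = 0.0857). In single omissions the call was lost without any DMSO or TDCIPP+DOX library or TDCIPP replicate 2 or 3 (adjusted p from 0.0513 to 0.111).

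The paralogues slc38a3a and slc38a3b, whose mammalian counterpart SNAT3 moves glutamine across the hepatocyte membrane, stood far apart in level and gave no call. In CPM, slc38a3b stood at 42.2, 56.0 and 36.6 in DMSO, 63.4, 47.7 and 45.2 in TDCIPP, 27.5, 23.2 and 14.3 in DOX, and 19.3, 52.4 and 68.3 in TDCIPP+DOX. The DOX libraries lay below the DMSO and TDCIPP libraries, at -1.05 ± 0.41 against DMSO (edgeR adjusted p = 0.133). For slc38a3a the values were 1.5, 0.15 and 0.72 in DMSO, 1.69, 0.45 and 0.63 in TDCIPP, 3.22, 0.33 and 0.96 in DOX, and 6.66, 13.8 and 2.39 in TDCIPP+DOX. TDCIPP+DOX lay above DMSO without overlap (3.26 ± 1.01, adjusted p = 0.0599). The gene slc38a10 varied least among those with a mean over 10 CPM in this family, between 17.2 and 24.2 CPM in all 12 libraries, and slc38a9, the lysosomal arginine sensor that feeds mTORC1 in mammals, lay between 2.37 and 7.64.

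Among the glutamate and neutral carriers of slc1, of which 3 genes were tested, only slc1a3a was called, lower in 3 comparisons. Of all genes tested, 6.37% were lower in TDCIPP+DOX against DMSO, 2.93% in DOX against DMSO and 2.16% in TDCIPP+DOX against TDCIPP. The gene slc1a3a stood at 154, 112 and 137 CPM in DMSO, 91.3, 114 and 99.8 in TDCIPP, 77.7, 81.2 and 43.7 in DOX, and 40.4, 48.2 and 60.4 in TDCIPP+DOX. On the TMM scale all libraries that received DOX lay below all that did not. In the authors' deposited FPKM, TDCIPP+DOX replicate 3 stood at 45.7 and DMSO replicate 2 at 41.6. The fall against DMSO was 2.7-fold in TDCIPP+DOX (-1.43 ± 0.26, edgeR adjusted p = 0.00565) and 1.99-fold in DOX (-0.99 ± 0.26, adjusted p = 0.0439). Against TDCIPP it was 2.05-fold in TDCIPP+DOX (-1.03 ± 0.26, adjusted p = 0.0478).

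The call of slc1a3a in TDCIPP+DOX against DMSO held in all 12 fits that left out 1 library, and under library totals it was lost (-0.42, edgeR adjusted p = 0.133). The call with DOX alone held in none of the 12 (adjusted p from 0.0518 to 0.137), and that against TDCIPP in 1, without DOX replicate 3 (adjusted p from 0.055 to 0.183 in the others). Without the 4 libraries of unequal organ transcripts, the log2 fold change of TDCIPP+DOX was -1.55 against DMSO (edgeR adjusted p = 0.0101) and -1.25 against TDCIPP (0.0297), and that of DOX against DMSO was -0.72 (0.118). The glutamine carrier gene slc1a5, the homologue of mammalian ASCT2, stood at 13.8, 44.2 and 26.2 CPM in DMSO and 18.5, 24.9 and 15.0 in TDCIPP+DOX, and these groups overlapped.

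Cationic amino acids enter through slc7a1, slc7a2 and slc7a3 carriers, of which slc7a2 was the highest in every group. It stood at 223, 205 and 240 CPM in DMSO, 168, 153 and 157 in TDCIPP, 127, 179 and 95.6 in DOX, and 76.2, 117 and 86.3 in TDCIPP+DOX. The 3 DMSO libraries were the highest of the 12. The fall in TDCIPP+DOX against DMSO was 2.39-fold (-1.25 ± 0.24, edgeR adjusted p = 0.00818) and held in all 12 fits that left out 1 library. With DOX alone it was 1.66-fold (-0.74 ± 0.24) and was not called (adjusted p = 0.0887). Under library totals the difference between TDCIPP+DOX and DMSO was -0.24 (adjusted p = 0.349), and without the 4 libraries of unequal organ transcripts it was -1.10 and called (0.0384). The group means of slc7a1, slc7a3a and slc7a3b lay between 0.396 and 10.3 CPM.

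Of the carriers built from a heavy and a light chain, 2 light chain genes were called with all 12 libraries, slc7a9 lower and slc7a10a higher. Both calls were in TDCIPP+DOX against DMSO. There, of the 12 tested slc7a genes, 2 were lower, slc7a2 and slc7a9, and 1 was higher, where 6.37% and 5.33% of all genes tested were. The carrier gene slc7a9 for cystine and dibasic amino acids, known from kidney and intestine in mammals, stood at 3.45, 5.14 and 2.24 CPM in DMSO, 2.05, 2.12 and 2.71 in TDCIPP, 1.99, 2.92 and 0.61 in DOX, and 0.5, 0.91 and 0.91 in TDCIPP+DOX. The TDCIPP+DOX libraries lay below all DMSO and TDCIPP libraries. The fall against DMSO was 4.66-fold (-2.22 ± 0.56, edgeR adjusted p = 0.0259) and was lost without DMSO replicate 1 or 2 or any TDCIPP+DOX library (adjusted p from 0.0605 to 0.108). Without the 4 libraries of unequal organ transcripts it held (-2.55, adjusted p = 0.0138), and under library totals it did not (-1.22, adjusted p = 0.0808). Kidney tubule markers, of which 6 to 8 of 11 had reads, summed to 233 to 277 CPM in DMSO and 95.4 to 208 in TDCIPP+DOX. Of 6 tested, 1 was called lower (6.37% of all genes tested). The kidney list holds cdh17, which is also in the intestinal list. In TDCIPP+DOX replicate 3, with the sum of 208, cdh17 made up 123 CPM. It stood at 25.3 and 8.46 in TDCIPP+DOX replicates 1 and 2, with sums of 95.4 each, and at 11.5 to 17.3 in DMSO. The part of kidney RNA in the fall of slc7a9 was not tested. Its heavy chain gene slc3a1 lay between 1.45 and 7.11 CPM, with groups that overlapped DMSO in TDCIPP+DOX.

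The other heavy chain, 4F2hc, is encoded by slc3a2a and slc3a2b. In CPM, slc3a2a stood at 7.26, 8.87 and 24.5 in DMSO, 8.37, 14.7 and 22.5 in TDCIPP, 6.9, 7.15 and 6.68 in DOX, and 12.7, 11.6 and 33.0 in TDCIPP+DOX. The highest library was TDCIPP+DOX replicate 3 and the next DMSO replicate 3, which are also the libraries with the most fabp2 RNA. The light chain genes slc7a7 and slc7a8a were highest in TDCIPP+DOX replicate 3 too, at 12.2 and 27.4 CPM. Both lay above DOX in every TDCIPP+DOX library, at 2.91 and 2.39 on the log2 scale, and were not called by edgeR (adjusted p = 0.126 and 0.114). Against DMSO, both were called higher in TDCIPP+DOX in the fit without the 4 libraries of unequal organ transcripts. The Asc-1 homologue slc7a10a rose 5.85-fold in TDCIPP+DOX against DMSO (2.55 ± 0.68, edgeR adjusted p = 0.0345) from a low base, 1, 4 and 4 reads in DMSO against 45, 36 and 44. That call was lost without any DMSO or TDCIPP+DOX library or TDCIPP replicate 2 or 3 (adjusted p from 0.0539 to 0.111), and without all 4 libraries of unequal organ transcripts (2.71, adjusted p = 0.101).

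Of the 13 tested slc6 genes, which carry neurotransmitters, neutral amino acids, taurine and creatine, 4 were called lower in TDCIPP+DOX against DMSO, where 6.37% of all genes tested were. The gene slc6a22.2 stood at 27.6, 13.9 and 16.8 CPM in DMSO, 27.9, 21.7 and 30.0 in TDCIPP, 7.69, 5.04 and 4.45 in DOX, and 7.65, 9.72 and 9.31 in TDCIPP+DOX. All 6 libraries that received DOX lay below all 6 that did not. The fall with DOX was 3.39-fold (-1.76 ± 0.30, edgeR adjusted p = 0.0122), and it held in all 12 fits that left out 1 library and under library totals (-1.12, adjusted p = 0.0346). TDCIPP+DOX lay lower than DMSO by 2.18-fold (-1.13 ± 0.29, adjusted p = 0.0313) and lower than TDCIPP by 2.98-fold (-1.58 ± 0.30, adjusted p = 0.0176).

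The last 2 calls of slc6a22.2 were each lost under library totals and without any TDCIPP+DOX library. They were lost, too, without DMSO replicate 1 or 3 in the first case (edgeR adjusted p from 0.0514 to 0.125) and TDCIPP replicate 2 or 3 in the second (from 0.0516 to 0.0825). In the fit without the 4 libraries of unequal organ transcripts, none of its 3 calls was kept, at -1.69, -1.22 and -1.55 for DOX against DMSO and TDCIPP+DOX against DMSO and TDCIPP (edgeR adjusted p = 0.0544, 0.0699 and 0.0594). Its neighbour slc6a22.1 lies on the opposite strand of chromosome 6, and whether counting used the strand is not given in the sources used here, nor how reads of near-identical copies were assigned. It stood at 11.7, 10.2 and 3.9 CPM in DMSO and 6.76, 1.17 and 4.64 in DOX, and these groups overlapped.

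The serotonin carrier gene slc6a4a stood at 5.22, 7.23 and 9.86 CPM in DMSO, 6.07, 6.14 and 6.73 in TDCIPP, 2.6, 2.96 and 2.08 in DOX, and 2.3, 4.62 and 3.25 in TDCIPP+DOX. On the TMM scale the 6 libraries with DOX again lay below the 6 without. The fall against DMSO was 2.92-fold in DOX (-1.55 ± 0.32, edgeR adjusted p = 0.023) and 2.19-fold in TDCIPP+DOX (-1.13 ± 0.32, adjusted p = 0.0416). The first was lost without DMSO replicate 2 or 3 (adjusted p = 0.0578 and 0.0909), and the second held in 3 of 12 fits, those without DMSO replicate 1, DOX replicate 3 or TDCIPP+DOX replicate 2 (from 0.0513 to 0.152 in the others). Leaving out the 4 libraries gave -1.14 and -0.80 on the log2 scale (adjusted p = 0.127 and 0.188). Under library totals both calls of slc6a4a were lost.

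The paralogues slc6a16a and slc6a16b, carriers whose substrate is unknown, were lowest in TDCIPP+DOX. The values of slc6a16b were 16.2, 13.0 and 13.0 CPM in DMSO, 21.7, 9.19 and 17.1 in TDCIPP, 15.7, 13.5 and 16.8 in DOX, and 6.64, 7.55 and 6.38 in TDCIPP+DOX. On the TMM scale every TDCIPP+DOX library lay below all others. In the authors' deposited FPKM the values were 4.44, 3.17 and 2.96 in DMSO and 3.43, 3.73 and 3.18 in TDCIPP+DOX. The fall was 2.05-fold against DMSO (-1.04 ± 0.28, edgeR adjusted p = 0.0349) and 2.33-fold against TDCIPP (-1.22 ± 0.28, adjusted p = 0.0337). Against DOX it was 2.23-fold (-1.16 ± 0.28) and missed the threshold (adjusted p = 0.0561). For slc6a16a the values were 6.17, 16.3 and 4.88 in DMSO and 0.81, 2.13 and 3.02 in TDCIPP+DOX, without overlap (-2.20 ± 0.60, adjusted p = 0.0382).

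The calls of both slc6a16 genes held in 5 of 12 fits that left out 1 library, and each was lost without any TDCIPP+DOX library. The call of slc6a16b against DMSO was also lost without any DMSO library or TDCIPP replicate 3 (edgeR adjusted p from 0.0542 to 0.118), and that against TDCIPP without DMSO or TDCIPP replicate 1 or 3 (from 0.0511 to 0.14). The call of slc6a16a was lost without DMSO replicate 1 or 2 or TDCIPP replicate 1 or 2 as well (from 0.0501 to 0.168). Under library totals slc6a16b differed by -0.03 from DMSO (adjusted p = 0.952). When the 4 libraries of unequal organ transcripts were left out, slc6a16a held (-2.88, edgeR adjusted p = 0.0257) and slc6a16b did not, at -1 against DMSO and -0.87 against TDCIPP (0.0709 and 0.164).

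Some slc6 genes were unequal within their groups. The glycine carrier gene slc6a9 stood at 0.09, 0.1 and 0.49 CPM in DMSO, 4.11, 0.87 and 7.92 in TDCIPP, 0.09, 0 and 0.44 in DOX, and 3.96, 0.91 and 0.3 in TDCIPP+DOX. All TDCIPP libraries lay above all DMSO libraries (4.22 ± 1.36, edgeR adjusted p = 0.311). The creatine carrier gene slc6a8 reached 6.34 CPM in TDCIPP+DOX replicate 3 and at most 0.59 elsewhere. The tandem copies slc6a19a.1 and slc6a19a.2, homologues of the neutral carrier of gut and kidney, were read in DMSO replicate 3 (10.1 and 7.48 CPM), TDCIPP replicate 1 (7.26 and 2.7) and TDCIPP+DOX replicate 3 (37.1 and 6.98). In each other library slc6a19a.1 stood at 0.22 CPM or less, and in DOX it had 0 reads, which allows up to 0.028 CPM over the group.

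The 3 libraries in which slc6a19a.1 was read in number are those in which fabp2 was high. In the same libraries the intestinal gene vil1 stood at 18.95, 16.2 and 172 CPM and the peptide carrier gene slc15a1b at 17.3, 5.46 and 37.1. The intestinal gene cdh17 did not follow in all 3, at 17.3, 12.4 and 123 CPM, since TDCIPP replicate 2 stood at 20.6 and TDCIPP+DOX replicate 1 at 25.3. Nor did the member slc6a19b, a further homologue of the neutral carrier, at 0, 8.49 and 4.59 CPM in these 3 libraries. It stood at 5.17 and 5.29 in DMSO replicates 1 and 2 and was highest in TDCIPP+DOX replicate 1, at 9.47. For the intestinal list, 10 to 14 of its 14 genes had reads in each library, with a summed level of 714 to 949 CPM in DMSO, 695 to 842 in TDCIPP, 216 to 357 in DOX and 426 to 1778 in TDCIPP+DOX. In DOX libraries vil1 stood at 0, 0 and 0.22 CPM. The part of intestinal RNA in the levels of slc6a19a.1, slc6a19a.2, slc7a8a and slc43a2b was not tested. Of these, slc7a8a and slc43a2b were called higher in TDCIPP+DOX against DMSO when the 4 libraries of unequal organ transcripts were left out.

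Some members were high in DOX replicate 3, in shares below those of all genes tested. There the cationic carrier family gene slc7a4 stood at 10.8 CPM and at most 1.66 elsewhere, slc38a11 at 6.09 and at most 0.61 elsewhere, and slc7a6 at 13.8 and at most 3.57 elsewhere. Of the 51 tested members, 7 were highest in this library, and 5 of them exceeded the next library at least 2-fold, where 25.3% and 10.1% of all genes tested did. By the sum of the oocyte list this library did not stand apart. That sum did not follow buc, which stood at 3.15 CPM in DMSO replicate 2, where the sum was 3007 CPM. The median log2 fold change of the 13 tested genes of that list was 3.52 in DOX against DMSO, beside 0.12 over all genes tested. In TDCIPP+DOX against DOX it was -3.42, beside -0.08, and none of the 13 was called in either comparison. The oocyte list had reads in 11 to 14 of its 14 genes in each library and summed to 2329 to 3007 CPM in DMSO, 1834 to 2427 in TDCIPP, 1838 to 2984 in DOX and 1305 to 1399 in TDCIPP+DOX. The part of oocyte RNA in the levels of slc7a4, slc38a11, slc7a6 and slc38a7 was not tested.

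**Figure D5:**
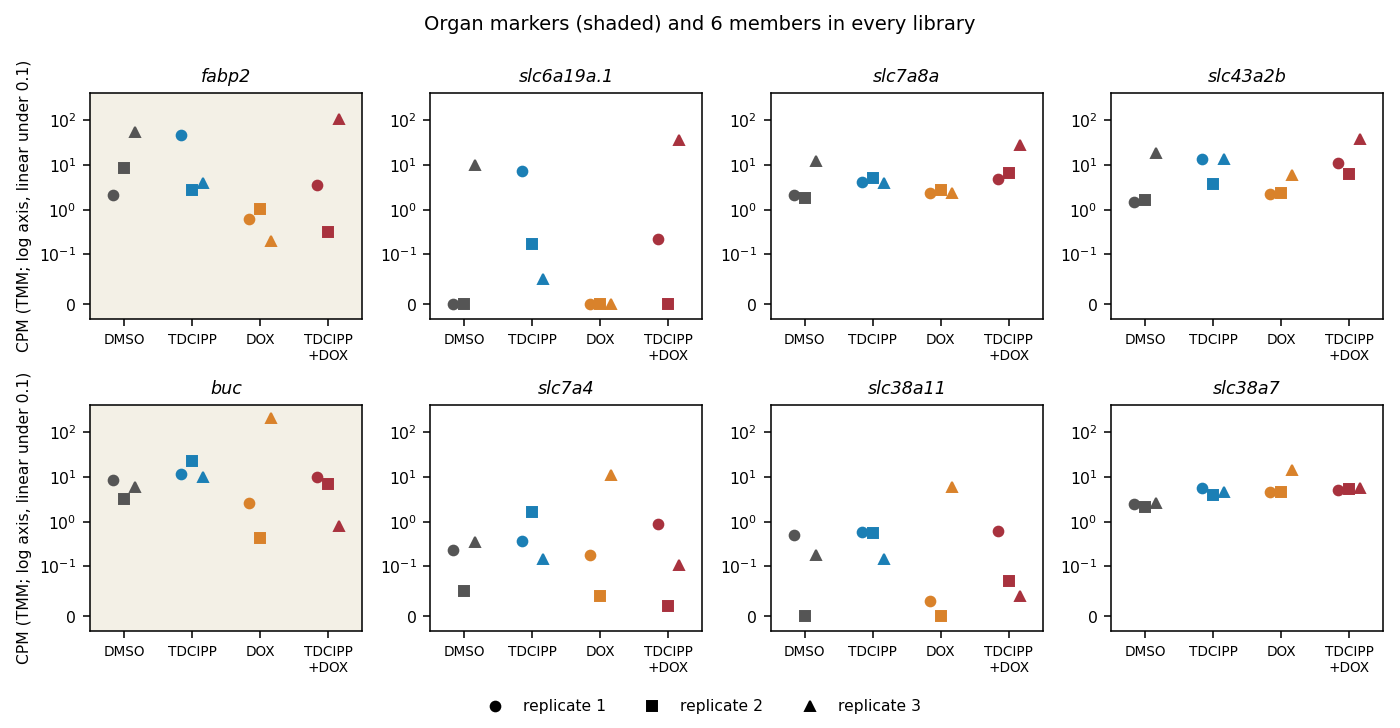
CPM (TMM, log axis, linear under 0.1) of the intestinal gene fabp2 and the oocyte gene buc (shaded panels) and of 6 members, with 1 point per library, marked by replicate. The members slc6a19a.1, slc7a8a and slc43a2b are highest in TDCIPP+DOX replicate 3, where fabp2 stands at 106, and slc7a4, slc38a11 and slc38a7 in DOX replicate 3, where buc stands at 205.

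The proton-coupled carriers of slc36 and the taurine carrier gave no call by edgeR with all 12 libraries. The values of slc36a4 were 1.04, 1.45 and 2.37 CPM in DMSO and 3.8, 3.16 and 3.04 in TDCIPP+DOX, without overlap (1.03 ± 0.42, edgeR adjusted p = 0.141). Those of the taurine carrier gene slc6a6b were 4.33, 5.22 and 2.87 in DOX and 7.43, 6.18 and 8.97 in TDCIPP+DOX, also without overlap (adjusted p = 0.161). Without the 4 libraries of unequal organ transcripts slc6a6b was called higher in TDCIPP+DOX against DMSO.

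Genes that use, sense or load amino acids were read beside the carriers, in the same fit. Counts and medians of these lists were taken on the TMM scale only. They were not made under library totals or without the 4 libraries of unequal organ transcripts. Of 40 tested genes of amino acid breakdown, 2 rose and 10 fell in TDCIPP+DOX against DMSO, and 2 rose and 3 fell in DOX against DMSO. Over all genes tested, 5.33% rose and 6.37% fell in the first comparison, and 3.93% and 2.93% in the second. Their median log2 fold changes were -0.37 and 0.15, beside 0.10 and 0.12 over all genes tested. Glutamine synthetase glula stood at 149 ± 73.5 CPM (SD, n = 3) in DMSO and at 9.41 ± 5.34 in TDCIPP. With DOX it stood at 16.2 ± 1.94 and with both agents at 19.2 ± 4.16. It fell in each treated group against DMSO (edgeR adjusted p = 0.0299, 0.00874 and 0.0037). Glutaminase glsb, which releases glutamate from glutamine, rose from 7.24 ± 1.4 to 30.0 ± 5.64 CPM in TDCIPP+DOX (2.05 ± 0.30, adjusted p = 0.00283). The branched-chain aminotransferase gene bcat1, which acts on substrates of LAT3, fell from 37.5 ± 6.96 to 11.7 ± 2.9 CPM (-1.68 ± 0.34, adjusted p = 0.0104).

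Among 26 tested genes of the amino acid response, 2 rose in DOX against DMSO (3.93% of all genes tested). In TDCIPP+DOX against DMSO, 2 rose and 1 fell (5.33% and 6.37% of all genes tested). The gene that fell, the serine hydroxymethyltransferase gene shmt2, turned to 0.09 under library totals. The kinase gene eif2ak3 encodes PERK, which is not GCN2 but also lies upstream of ATF4. It rose in DOX against DMSO (1.16 ± 0.24, edgeR adjusted p = 0.023), to 49.5 ± 7.75 CPM. In TDCIPP+DOX it stood at 14.1 ± 3.02, lower than in DOX (-1.81 ± 0.25, adjusted p = 0.0244). The cystathionine lyase gene cth stood at 17.4 ± 1.88, 15.2 ± 2.83, 45.1 ± 23.4 and 41 ± 4.73 CPM in DMSO, TDCIPP, DOX and TDCIPP+DOX, and rose against DMSO in the groups with DOX (adjusted p = 0.0301 and 0.0274). Of 42 tested genes of amino acid sensing and mTORC1, 7 fell in TDCIPP+DOX against DMSO, where 6.37% of all genes tested were lower, and the list's median log2 fold change was 0.02 beside 0.10. The translation repressor gene eif4ebp3, whose protein mTORC1 phosphorylates, had group means of 300, 86.9, 44.6 and 10.8 CPM in the same order (-4.79 ± 0.28 in TDCIPP+DOX against DMSO, adjusted p = 3.81e-05).

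Of the 20 cytosolic aminoacyl-tRNA synthetase genes, 4 rose in DOX against DMSO, where 3.93% of all genes tested did. Among them were vars and nars (0.97 ± 0.23 and 1.04 ± 0.26, edgeR adjusted p = 0.0332 and 0.0371). In TDCIPP+DOX against DMSO, 2 of the 20 rose and 4 fell, where 5.33% and 6.37% of all genes tested did. The gene aars went from 199 ± 3.45 to 87.2 ± 11.5 CPM (-1.19 ± 0.19, edgeR adjusted p = 0.00346). Under library totals aars stood at -0.17 (adjusted p = 0.505), and 2 others that fell, gars and farsa, turned to 0.11 and 0.16. The medians of the list were 0.35 and -0.07, beside 0.12 and 0.10 over all genes tested.

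In the authors' deposited table, 4 members had an adjusted p under 0.05 for TDCIPP+DOX against DMSO, of 72 members with a value. They were slc1a3a, slc43a1a, slc7a2 and slc7a9, and all 4 were called in the fit described here. For TDCIPP+DOX against DOX the authors' deposited table gave 2 of 74, slc43a1a and slc43a3b. The shares of all genes under 0.05 by the authors' adjusted p were not counted here. For DOX or TDCIPP against DMSO the authors' deposited table gave 0 of 73 and 0 of 71. The present edgeR fit called 5 and 0 members there. In that fit 10 and 3 members had an unadjusted p under 0.05, as did 26.6% and 10% of all genes tested.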

How the data were processed

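RNA-seq of liver was deposited for 4 groups of 3 libraries. Raw read counts per gene and FPKM (depth-scaled fragments per kilobase) were made by the authors, and their deposited table also holds adjusted p-values of their own comparisons. HISAT was used for alignment, per the submitters' processing notes. Its version, the genome build, the annotation, the counting tool and the tool behind the p-values are not stated in the labels. Counts were fitted here with edgeR 4.0.16 in R 4.3.3 (TMM, filterByExpr, quasi-likelihood test). The model had 4 group means over all 12 libraries and 8 residual degrees of freedom, with Benjamini-Hochberg adjustment over the 19160 genes tested in each comparison and a threshold of 0.05. The SE of a log2 fold change was taken from its F statistic, and every p in the text is from this fit unless another tool or the authors' table is named. The biological coefficient of variation was 54.5%. FPKM was used for levels only, and the deposited FPKM followed from count, length and library total within 1% for 47.9% of the values checked. Limits for a count of 0 use 3 reads and cover counting error only.

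Groups were taken from the labels. The members and the gene lists (pathways, cell type markers) were chosen with earlier results of these data known, and 269 of 275 list entries matched the table. Members called in a comparison, the 12 with the highest mean, members of named transport roles that averaged 1 CPM or more in a group, and members with a library that stands apart could be named, with up to 4 called genes of each other list. The members slc6a9, slc36a4, slc6a1a and slc6a1b were named after their values were seen. Alternatives were DESeq2 1.42.0, DESeq2 size factors, library totals, no filter, a log2 fold change of at least 1, a block for the replicate number, a fit of only the groups compared, each library left out, and the 4 libraries with organ transcripts left out.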

Additional observations from a re-analysis of the deposited data

Results flagged for a closer look

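For the large neutral amino acid carrier gene slc43a1a, the differences with DOX had opposite signs without and with TDCIPP. DOX alone lay above DMSO in 3 of 3 libraries, at group means of 63.6 ± 20.6 and 32.2 ± 6.02 CPM (SD, n = 3), and TDCIPP+DOX lay below TDCIPP in 3 of 3, at 12.4 ± 2.16 and 39.6 ± 9.34. The fall was called (-1.67 ± 0.29, edgeR adjusted p = 0.0126), and the difference of DOX from DMSO was not (0.98 ± 0.28, adjusted p = 0.0599). The interaction was -2.66 ± 0.40 on the log2 scale and missed the threshold in edgeR (adjusted p = 0.0774). It passed under library totals (adjusted p = 0.0262), with no filter on low counts (0.0448), in DESeq2 (2.82e-05) and without DOX replicate 3 (0.0152). Without all 4 libraries of unequal organ transcripts it was -3.02 (edgeR adjusted p = 0.102).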

How the results depend on the processing

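The number of members called in DOX against DMSO, 5, fell to 0 without the 4 libraries of unequal organ transcripts. It fell to 0 with only the groups compared in the fit, and to 2 with the replicate block. Of all genes tested, the share called went from 6.86% to 3.57%, 0.597% and 5.15%, in that order. For TDCIPP+DOX against TDCIPP, 4 calls became 2 without the 4 libraries and 2 with the replicate block (all genes, 4.18% to 4.4% and 3.79%). For TDCIPP+DOX against DMSO, 10 calls became 6 with no filter on low counts (all genes, 11.7% to 6.25%). For TDCIPP+DOX against DOX, 1 call became 9 in DESeq2 and 0 with only the groups compared (all genes, 2.1% to 6.22% and 0%). DESeq2 called 2 members in TDCIPP against DMSO and 2 in the interaction, where edgeR called 0 and 0 (all genes, 1.25% and 0.823% against 0.0418% and 0.0261%). Shares by DESeq2 are of all 34028 genes, those without reads included, so they are low beside those by edgeR. For the interaction, library totals gave 1 and no filter gave 1 (all genes, 0.0209% and 0.0559%). The causes were not tested. Leaving out 1 library at a time gave 1 to 4 calls in DOX against DMSO, 3 to 12 in TDCIPP+DOX against DMSO, 0 to 2 against DOX, 0 to 6 against TDCIPP, 0 to 1 in the interaction and 0 to 0 in TDCIPP against DMSO. In the same order, the share of all genes called in these fits ran from 1.04% to 6.52%, 5.11% to 17.1% and 0% to 2.4%. For the last 3 it ran from 0.635% to 6.76%, 0% to 0.0497% and 0% to 0.101%. The lowest counts of members came without DMSO replicate 2 or 3 (DOX against DMSO) or without TDCIPP+DOX libraries (its own comparisons), and those against DMSO and TDCIPP were highest without DOX replicate 3.

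Under library totals the log2 fold change of TDCIPP+DOX against DMSO turned from negative to 0.15 for slc43a1b, 0.16 for farsa, 0.11 for gars and 0.09 for shmt2. Without the 4 libraries the interaction of slc6a8 turned to -1.63 and that of slc7a8a to -0.01. Of the 20 calls of members over all comparisons, 15 were lost under library totals, 1 under DESeq2 size factors, 0 in DESeq2, 6 with no filter on low counts and 12 without the 4 libraries.

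Whether the replicate numbers pair the libraries could not be settled with 3 libraries a group. Deviations from the group means correlated above 0.1 in 1 of 18 same-numbered pairs (r from -0.296 to 0.231), and 5 of 12 libraries correlated best with their own number. Of the 20 calls of members, 7 were lost with the replicate block.

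Depth limits the genes under about 1 CPM, such as slc7a10a with 1 to 4 reads in each DMSO library. Whole-liver RNA with unequal organ transcripts, unknown counting strand and 3 libraries a group limit the rest.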
